A study of Mus musculus with 28 samples.

Results

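The comparison described here set freshly isolated satellite cells of SIRT1mKO mice (KO_FI, 3 libraries) against those of WT mice (WT_FI, 3 libraries), 6 of the 28 samples of the series. The members were all rows of the deposited table that holds these 6 libraries, 22552 genes, of which 22530 had status OK in every library and 15146 passed a filter on low counts and were tested. Satellite cells are the stem cells of skeletal muscle. Per the labels, both groups were polyA RNA of quiescent cells taken straight from FACS, without culture, on a C57Bl/6 background. KO animals carried a Pax7cre/+ knock-in together with a Sirt1 allele whose exon 4 is flanked by loxP sites, so recombination occurs in cells that express or have expressed Pax7. WT animals are given as WT only, and whether they carried the Cre or the floxed allele is not given in the sources used here, nor are age, sex or pooling of animals. The labels list 5 WT_FI libraries, and the table holds 3 WT libraries under an index of 0, 1 or 2. Values are given below in the order of index 0, 1 and 2.

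SIRT1 is a deacetylase that uses NAD as a cosubstrate and acts on histones, including lysine 16 of histone H4, and on many other proteins. Exon 4 encodes part of its catalytic domain. Quiescent satellite cells express Pax7, rely on Notch signalling and the FoxO factors to stay out of the cell cycle, and on activation induce Myod1, enter the cell cycle and, later, express Myog and the contractile genes. Enzymatic release of these cells from muscle is known to induce immediate early and heat shock genes within the time of isolation.

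Between KO_FI and WT_FI no gene passed edgeR's quasi-likelihood test at an adjusted p of 0.05, 0 of 15146 (0%). Elovl4, Ryr3, Hpse and Kcne4 were lower in every KO_FI library than in every WT_FI library, with log2 differences of -3.13, -3.20, -2.78 and -1.86, and Dcx, Vstm2a, Mylk2 and Sdc3 were higher, with 3.02, 1.56, 1.48 and 0.91. Pax7 and Myf5 levels overlapped between the groups. The estimate was below 0 for 40 of 40 mitosis and G2/M genes and 18 of 19 heat shock chaperones. It was also below 0 for 25 of 25 immediate early genes, and the share over all genes tested was 55.3%. The list medians were -0.89, -0.75 and -0.60 against -0.03 over all genes, and none of these genes passed the test. Within the library pair of index 0, where differences within an index are taken on log2(CPM + 0.5) here and below and so understate the change of low genes, the medians were 0.26, 0.00 and -0.23.

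Depth was 55138738, 33709029 and 28010691 fragments in WT_FI and 65324684, 34215376 and 34904044 in KO_FI, so index 0 was the deepest in both. Estimated counts were not whole numbers for 8.18% (WT_FI) and 8.11% (KO_FI) of detected genes at index 0, against 2.43 to 2.82% in the others. The 2 libraries of index 0 stood apart from the other 4 in both genotypes. Spearman's correlation over all genes was 0.9945 between the 2 libraries of index 0 and 0.9304 to 0.9478 between them and the others, which had 0.973 to 0.9933 among themselves. Cytoplasmic ribosomal protein genes separated them most plainly, with a mean log2 CPM of 4.96 in WT_FI and 4.70 in KO_FI at index 0, against 8.79 to 9.60 in the others. CPM here are counts relative to the TMM-scaled library size. What the index stands for is not given, and the index is present in equal number in both groups. The 12 satellite cell markers summed to 7522 to 9560.0 CPM, 14 fibroblast and fibro-adipogenic markers to 8364 to 11640.0 CPM and 10 pericyte and smooth muscle markers to 6306 to 11480.0 CPM, so the sums alone do not show which cells prevailed. Xist, from the inactive X, lay at 935 to 2916 CPM and the Y-linked Ddx3y at 21.3 to 112 CPM, both detected in each library. Together the 5 sex-linked genes tested summed to 2391, 2031 and 1158 CPM in WT_FI and 1609, 1743 and 3000 CPM in KO_FI. Xist weighs most in this sum, which joins it with Y-linked genes. The within-index medians, in which Y-linked genes outnumber Xist, were 0.46, 0.64 and -1.25. At each index the sum and the median moved in opposite directions, so neither alone describes these genes. Their levels were not alike across libraries, and the share of each sex in a library was not tested. Whether the libraries came from separate animals is not stated, so every p-value reflects the spread among these 6 libraries, part of which may be technical.

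Sirt1 was detected in all 6 libraries, at 81.4, 50.6 and 47.4 CPM in WT_FI and 63.4, 37.6 and 44.3 CPM in KO_FI. Its level was lower in KO_FI at each index, and index 0 was the highest in both groups, so the groups overlapped. The log2 difference, KO minus WT, was -0.30 with a standard error (SE) of 0.28, and the adjusted p was 1.00. The value counts fragments over the whole gene, so exons outside the deleted one contribute to it and it does not check the deletion. On the per-length FPKM scale Sirt1 lay at 22.3, 13.8 and 13 FPKM in WT_FI and 17.2, 10.3 and 12.1 FPKM in KO_FI.

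Of the 15146 genes, 621 (4.1%) had an unadjusted p under 0.05 and none passed after adjustment. The smallest adjusted p was 0.0894, for Elovl4. With the index as a block, which uses the difference within each index, the test again called 0 genes (0%), but the adjusted p of Hpse, Lmod2 and Rhoh came to just above 0.05. A term that only separates index 0 from the others, chosen after the libraries were seen, called 3 genes (0.0198%), Elovl4, Kcne4 and Rhoh, all lower in KO_FI with an adjusted p of 0.0306. DESeq2 called 117 genes (0.772%), 67 higher and 50 lower in KO_FI, and 251 (1.66%) with the block. Because the main test called none, the genes below are described by their values and by whether the groups overlap. Groups did not overlap for 844 genes that were higher in KO_FI (5.57%) and for 553 that were lower (3.65%). With 3 libraries a group, groups can also separate where the genotypes do not differ. Lack of overlap alone is therefore not evidence of a difference.

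**Figure D1:**
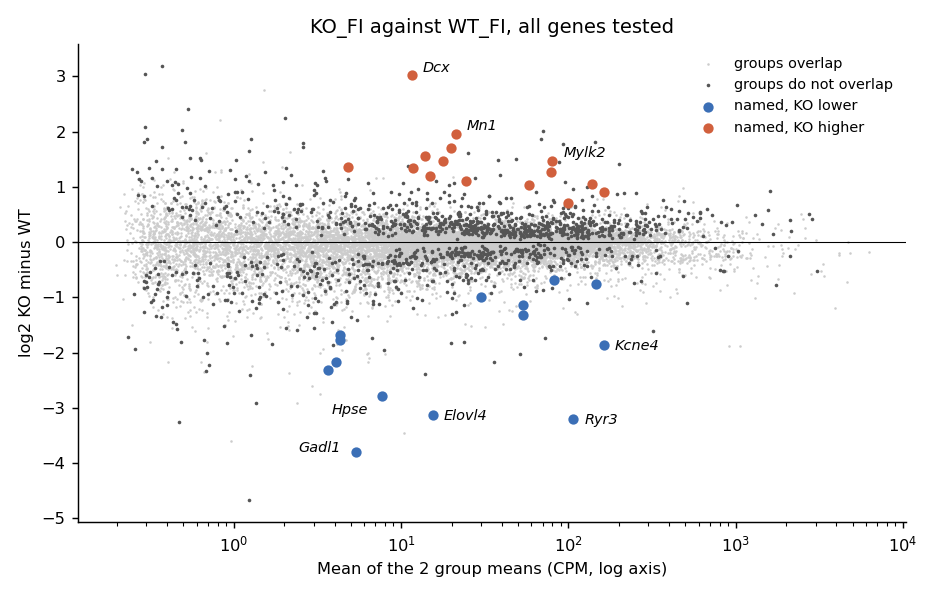
Each point is 1 of the 15146 genes tested, placed by the mean of the WT_FI and KO_FI mean CPM (log axis) and by the log2 difference, KO minus WT; dark points have groups that do not overlap and coloured points are the 29 genes described here that were taken from those with the smallest p among them. Elovl4, Ryr3, Hpse and Gadl1 lie lowest among the coloured points, between -2.78 and -3.79, and Dcx highest, at 3.02.

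The 14 lower and 15 higher genes described first were taken from the 15 with the smallest p in each direction, among those with at least 5 CPM in the higher group and groups that did not overlap. They differed by 1.62-fold to 13.9-fold where lower in KO_FI and by 1.63-fold to 8.09-fold where higher. Their adjusted p was 0.0894 to 0.478 and 0.169 to 0.523, and DESeq2 called all 29. They were chosen for this difference, so their values are a description. Those lower in KO_FI included enzymes of lipid and heparan sulphate metabolism and subunits of ion channels, and those higher included a muscle kinase, a calcium release channel and a syndecan.

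Elovl4, an elongase that makes very long chain fatty acids, lay at 29, 22.2 and 32.3 CPM in WT_FI and 3.27, 3.67 and 2.6 CPM in KO_FI. Every KO_FI library was under 4 CPM and every WT_FI library over 22 CPM, a log2 difference of -3.13 (SE 0.22). Adh1, an alcohol dehydrogenase that oxidises retinol, lay at 80.2, 75.8 and 65.6 CPM in WT_FI and 28.3, 42.7 and 29.2 CPM in KO_FI. Gadl1, a decarboxylase of acidic amino acids, was low in KO_FI throughout, with 5.51, 19 and 5.54 CPM in WT_FI and 0.524, 0.71 and 0.942 CPM in KO_FI, and its WT_FI library of index 1 stood above the others. Over the fatty acid and sterol synthesis list, of 38 genes tested, 22 estimates were above 0 and 16 below, with a median of 0.02. Elovl5, which elongates polyunsaturated fatty acids, overlapped between groups, with a log2 difference of -0.27.

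Hpse, heparanase, which cuts heparan sulphate chains, lay at 14.8, 10.2 and 15.2 CPM in WT_FI and 2.33, 1.54 and 1.97 CPM in KO_FI (log2 -2.78, SE 0.26). The within-index differences, on log2(CPM + 0.5), were -2.44, -2.40 and -2.67. Sdc3, a syndecan of the satellite cell surface that carries heparan sulphate, lay at 138, 98.1 and 106 CPM in WT_FI and 209.5, 229 and 204 CPM in KO_FI (log2 0.91, SE 0.15). Sdc1, another syndecan, lay at 49.2, 46.5 and 58.3 CPM in WT_FI and 83.1, 90.7 and 74.3 CPM in KO_FI (log2 0.69). In both syndecans each KO_FI library was above every WT_FI library. Ndst3, a sulphotransferase that modifies the chains, was low and lower in KO_FI (log2 -0.76). Of the 29 genes of the list, 19 had estimates above 0 and 10 below, and groups did not overlap for 4 in the higher and 2 in the lower direction, 20.7% of the list against 9.22% of all genes.

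Kcne4, Bsnd and Fgf12, whose products bind ion channels, were among the genes chosen as lower in KO_FI. Kcne4, an accessory subunit of voltage-gated potassium channels, lay at 280.2, 219 and 264 CPM in WT_FI and 85.3, 67.6 and 57.8 CPM in KO_FI (log2 -1.86, SE 0.18). Every KO_FI value was under 90 CPM and every WT_FI value over 200 CPM. Bsnd, barttin, the subunit of the ClC-K chloride channels, lay at 5.61, 6.09 and 6.48 CPM in WT_FI and 1.16, 1.24 and 1.26 CPM in KO_FI (log2 -2.31). Fgf12, an intracellular fibroblast growth factor homologue that binds sodium channels, lay at 6.14, 7.37 and 6.22 CPM in WT_FI and 1.91, 2.19 and 2.05 CPM in KO_FI (log2 -1.68). Of 43 potassium channel genes tested, groups did not overlap only for Kcne4 and for the Kcne family gene Kcne1l, whose log2 difference was 0.65, a share of 4.65% against 9.22% of all genes.

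The ryanodine receptors, which release calcium from the sarcoplasmic reticulum, went in opposite directions. Ryr3 lay at 216, 115 and 248 CPM in WT_FI and 27.6, 20.3 and 15.1 CPM in KO_FI (log2 -3.20, SE 0.37). Ryr1, the main isoform of adult skeletal muscle, lay at 36.8, 45.6 and 32.6 CPM in WT_FI and 68.7, 87.8 and 78.1 CPM in KO_FI (log2 1.03, SE 0.16). In WT_FI the Ryr3 libraries lay above the Ryr1 libraries in CPM, and in KO_FI below them, on a scale that is not corrected for length. Itpr3, an inositol trisphosphate receptor, was also higher in each KO_FI library (log2 0.62). Across the 29 calcium store and coupling genes, 8 estimates were above 0 and 21 below. Groups did not overlap for 3 in the higher and 1 in the lower direction (13.8% against 9.22% of all genes).

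Mylk2, the myosin light chain kinase of skeletal muscle, lay at 49.1, 33 and 45.1 CPM in WT_FI and 111, 122 and 122 CPM in KO_FI (log2 1.48, SE 0.16). The KO_FI libraries were close to each other, and the lowest of them was more than 2 times the highest WT_FI library. Lmod2, leiomodin 2, which nucleates actin in thin filaments, lay at 110.1, 58.3 and 79.1 CPM in WT_FI and 29.8, 11.5 and 19.1 CPM in KO_FI (log2 -2.03, SE 0.40). Within each index Lmod2 differed by -1.87, -2.30 and -2.02, more evenly than its levels, which varied by index in both genotypes. Des, the muscle intermediate filament protein desmin, was lower in every KO_FI library (log2 -0.52), and Actn3, an actinin of the Z disc, higher (log2 0.37). Over the 55 genes of the sarcomere list, 20 estimates were above 0 and 35 below, with within-index medians of 0.17, -0.36 and -0.25, so the list had no single direction. Groups did not overlap for 3 of these in the higher and 4 in the lower direction (12.7% against 9.22% of all genes). Markers of mature myofibres, 16 genes, had 11 estimates above 0 and 5 below (median 0.36). They summed to 372, 373 and 327 CPM in WT_FI and 438, 418 and 349 CPM in KO_FI. Groups did not overlap for 2 in the higher and 1 in the lower direction (18.8% against 9.22% of all genes). Their part in the values of muscle genes was not tested.

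Other genes lower in KO_FI included Serpini1, neuroserpin, an inhibitor of plasminogen activators, at 87.1, 80.3 and 62.8 CPM in WT_FI and 29.1, 30.8 and 32.3 CPM in KO_FI (log2 -1.32). Rgs2, which speeds GTP hydrolysis on G alpha q, lay at 98, 101 and 105 CPM in WT_FI and 70.1, 57.3 and 60.6 CPM in KO_FI, a smaller difference (log2 -0.69) between tight groups. The adhesion receptor Gpr125 lay at 194, 189 and 164 CPM in WT_FI and 99.2, 115 and 109.7 CPM in KO_FI (log2 -0.76). Tmem229a, Pof1b and Iqch completed the lower set, with log2 differences of -0.99, -1.78 and -2.17. Rhoh, an atypical small GTPase known from blood cells, lay at 89.6, 48.2 and 38.6 CPM in WT_FI and 23, 8.34 and 7.7 CPM in KO_FI (log2 -2.17, edgeR adjusted p = 0.819, and 0.00549 with DESeq2), with index 0 the highest in both genotypes.

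On the higher side, Dcx, doublecortin, a microtubule-binding protein of migrating neurons, had the largest difference of the 15, at 3.61, 1.38 and 2.64 CPM in WT_FI and 22.3, 20.5 and 19.2 CPM in KO_FI (log2 3.02, SE 0.36). Its KO_FI levels were nearly equal and the WT_FI levels were all under 4 CPM. Vstm2a, which encodes an immunoglobulin domain protein, lay at 8.02, 5.7 and 7.34 CPM in WT_FI and 20.3, 20.3 and 21.4 CPM in KO_FI (log2 1.56). Arhgap22, a GTPase-activating protein for Rac, lay at 10.7, 9 and 8.39 CPM in WT_FI and 23.8, 29.7 and 24.8 CPM in KO_FI (log2 1.47). In both, KO_FI libraries were at least 2 times the highest WT_FI library. Wisp2, a matricellular protein of the CCN family, lay at 9.06, 10.1 and 8 CPM in WT_FI and 20.7, 23 and 18.7 CPM in KO_FI (log2 1.20). Entpd2, an ectonucleotidase that hydrolyses extracellular ATP, lay at 84.2, 101 and 84.3 CPM in WT_FI and 152, 229 and 177 CPM in KO_FI (log2 1.05). Mn1, a transcriptional coregulator, lay at 10.8, 8.11 and 7.13 CPM in WT_FI and 21.5, 32.8 and 47.4 CPM in KO_FI (log2 1.96), with KO_FI libraries that differed among themselves by about 2 times.

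The rest of the higher set were Cyb561, a cytochrome b561 of secretory vesicles (log2 1.10), Pla2g5, a secreted phospholipase A2 (log2 1.34), and Il20rb, a subunit of interleukin 20 receptors (log2 1.70). Plagl1, an imprinted zinc finger gene, lay at 76, 71.3 and 80.4 CPM in WT_FI and 109, 121 and 142 CPM in KO_FI (log2 0.71). Plekha6, a pleckstrin homology domain gene, differed by 1.28, and Dtx1, a regulator of Notch, by 1.36.

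**Figure D2:**
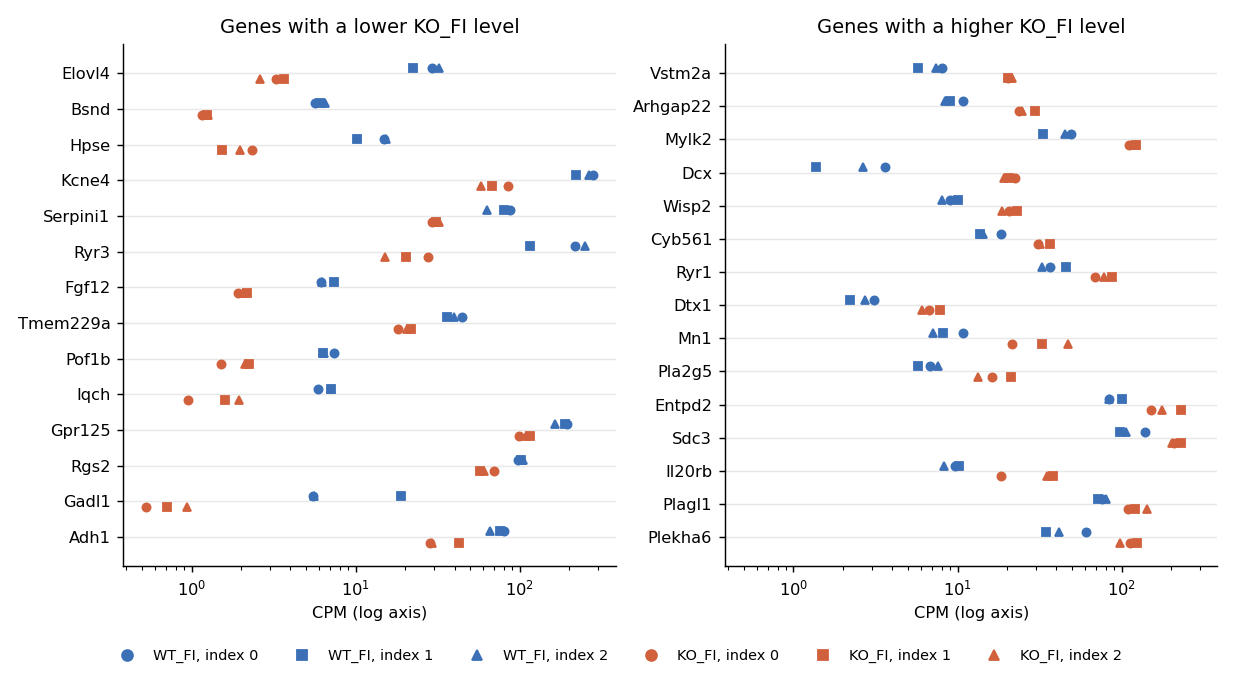
CPM (log axis) of 14 lower and 15 higher genes taken from those with the smallest p among genes whose groups did not overlap; blue is WT_FI, orange KO_FI, and the symbol gives the index. Each KO_FI library lies on one side of all 3 WT_FI libraries, as the choice of genes requires, and Gadl1 at index 1 is the WT_FI point farthest from its group.

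The myogenic regulators did not move as a set. Pax7, which defines the satellite cell, lay at 1059, 832 and 863 CPM in WT_FI and 905, 1056 and 1022 CPM in KO_FI, with overlapping groups (log2 0.12, SE 0.16). Myf5, an early myogenic factor, lay at 292, 326 and 299.6 CPM in WT_FI and 281, 287 and 297 CPM in KO_FI (log2 -0.09, SE 0.11). Myod1, the factor induced on activation, lay at 139, 252 and 135 CPM in WT_FI and 84.5, 94.2 and 66.1 CPM in KO_FI (log2 -1.10, SE 0.29, unadjusted p = 0.00799, adjusted p = 0.822). DESeq2 called Myod1, with an adjusted p of 0.0366, and of 1.03e-06 with the index as a block. Every KO_FI library had less Myod1 than every WT_FI library. Myog, a differentiation factor, had no common direction, at 40.8, 225 and 37.2 CPM in WT_FI and 117, 45.2 and 20.0 CPM in KO_FI: KO_FI was higher at index 0 and lower at the others. On the FPKM scale, which corrects for length, Pax7 stood at 240.2, 185 and 193 FPKM in WT_FI and 202, 236 and 228 FPKM in KO_FI, Myf5 at 143, 157 and 145 FPKM in WT_FI and 136, 139 and 144 FPKM in KO_FI and Myod1 at 77.9, 138 and 74.4 FPKM in WT_FI and 46.5, 52.1 and 36.4 FPKM in KO_FI, so Pax7 was the most abundant of these in each library. Among the other myogenic genes, Eya1, a coactivator of homeobox factors, lay at 45.1, 38.8 and 50.5 CPM in WT_FI and 61.4, 75.1 and 75.8 CPM in KO_FI (log2 0.66). Of 23 genes on the list 9 had estimates above 0 and 14 below. Groups did not overlap for 3 in the higher and 2 in the lower direction (21.7% against 9.22% of all genes).

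Genes of the quiescent state had a median of 0.19, with 19 of 28 above 0, against 44.7% of all genes and an overall median of -0.03. The within-index medians were 0.00, 0.29 and 0.30, so index 0 showed none of it. Groups did not overlap for 4 genes in the higher and 1 in the lower direction of 28 (17.9% against 9.22% of all genes). Besides Sdc3, groups did not overlap for Pax3, a paralogue of Pax7, at 12.4, 12.6 and 12.3 CPM in WT_FI and 17.6, 16.5 and 15.8 CPM in KO_FI (log2 0.42). Notch3, the Notch receptor of quiescent cells and also of pericytes, lay at 2784, 1966 and 2612 CPM in WT_FI and 3103, 3356 and 3321 CPM in KO_FI (log2 0.41), and Vcam1, a surface marker used to sort these cells, at 572, 548 and 449.9 CPM in WT_FI and 575, 849 and 692 CPM in KO_FI (log2 0.43). The nearest Vcam1 values were 572 CPM (WT_FI) and 575 CPM (KO_FI). Cd34, a surface sialomucin of quiescent cells that endothelial cells also express, went the other way, at 448, 390.4 and 351 CPM in WT_FI and 297, 247 and 262 CPM in KO_FI (log2 -0.56). Foxo3, a factor of quiescence, was at 136, 89 and 103 CPM in WT_FI and 120.2, 215 and 226 CPM in KO_FI, lower in KO_FI at index 0 and more than 2 times higher at the others. Foxo1, a related factor, and Trp53inp1, a p53 target, split by index in the same way, with within-index differences of -0.13, 0.86 and 0.79 for Foxo1 and -0.06, 1.16 and 1.05 for Trp53inp1. Endothelial markers, 12 genes, summed to 676, 324 and 1122 CPM in WT_FI and 993, 656 and 712 CPM in KO_FI, lowest in WT_FI of index 1 and highest in WT_FI of index 2, and their part in Cd34 was not tested.

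All 39 DNA replication and G1/S genes tested and all 40 mitosis and G2/M genes had estimates below 0, against 55.3% of all genes, and none of them passed the test. The sizes depended on the index. For DNA replication the medians within index 0, 1 and 2 were -0.09, -0.82 and -0.19, and 26 of 39 genes were lower in KO_FI within all 3 (16.6% of all genes). For mitosis they were 0.26, -2.11 and -0.35, and 6 of 40 genes were lower within all 3. Groups did not overlap for 11 of 39 replication genes (28.2%) and 5 of 40 mitosis genes (12.5%), all lower in KO_FI. The share over all genes was 9.22%. The WT_FI library of index 1 was the highest: summed levels of the mitosis list were 366, 916 and 384 CPM in WT_FI and 430.2, 213 and 311 CPM in KO_FI. Without both libraries of index 1 the median of the mitosis list was -0.01, with 18 genes above and 22 below 0, and that of the replication list -0.15, with 34 of 39 still below 0. Without both libraries of index 0 the medians were -1.39 and -0.51, with no gene above 0.

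Single replication genes showed the same shape at low levels. Mcm2, a subunit of the replicative helicase, lay at 30.7, 42.7 and 28.4 CPM in WT_FI and 26.3, 16.8 and 19.8 CPM in KO_FI (log2 -0.69). Mcm5, another subunit, lay at 28.4, 38.3 and 26.2 CPM in WT_FI and 23.4, 14 and 20.6 CPM in KO_FI (log2 -0.68), and Cdc6, which loads that helicase, at 4.77, 6.38 and 5.14 CPM in WT_FI and 3.45, 1.45 and 2.51 CPM in KO_FI (log2 -1.13). In each of these the WT_FI library of index 1 was the highest and the KO_FI library of index 1 the lowest. Rrm2, a ribonucleotide reductase subunit, differed by -0.71, and E2f2, an activating E2F factor, by -0.92. Among mitotic genes without overlap, Pttg1, securin, lay at 6.68, 6.98 and 4.67 CPM in WT_FI and 4.16, 2.63 and 3.11 CPM in KO_FI (log2 -0.89), and Nusap1, a spindle protein, at 6.74, 12.8 and 7.81 CPM in WT_FI and 5.78, 3.37 and 5.14 CPM in KO_FI (log2 -0.93). For Birc5, survivin, the difference was -0.01 within index 0 and -2.34 within index 1.

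Replication genes are known targets of E2F factors, so the promoters of members were searched for the letters TTTNNCGC, a core of E2F sites, on both strands of the 250 bases before the start in RefSeq (GRCm38.p6). The letters occurred in 9 of the 31 list genes with a promoter entry (29%) and in 838 of 10596 tested genes with one (7.91%). The 9 were Cdc6, Gins3, Mcm5, Mcm6, Mcm7, Orc1, Pola1, Rfc3 and Uhrf1. A match is a description of the sequence, not a binding site. Mcm5 and Cdc6 are shown because their groups did not overlap, with the matching letters in capitals, and for Mcm5 the capitals are a match on each strand that overlap. The windows are chr8:75109302-75109421 (plus strand) and chr11:98907957-98908076 (plus strand), both upstream of the start.
Mcm5: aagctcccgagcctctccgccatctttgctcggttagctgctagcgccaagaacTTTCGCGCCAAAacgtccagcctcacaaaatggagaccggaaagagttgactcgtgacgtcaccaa
Cdc6: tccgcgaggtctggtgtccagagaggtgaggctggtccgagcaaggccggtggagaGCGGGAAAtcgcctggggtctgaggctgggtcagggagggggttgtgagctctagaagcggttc

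The heat shock chaperones differed at index 1 and 2 and hardly at index 0. Of 19 genes tested, 18 were below 0, with a median of -0.75, and the within-index medians were -0.00, -1.43 and -1.07. Hsp90aa1, the inducible cytosolic HSP90, lay at 427, 2473 and 2108 CPM in WT_FI and 461, 419 and 472 CPM in KO_FI. The WT_FI libraries of index 1 and 2 were more than 4 times higher than the other 4 libraries, which included WT_FI of index 0. Hspb1, a small heat shock protein, lay at 546, 2156 and 1577 CPM in WT_FI and 546, 358 and 251 CPM in KO_FI, and Dnaja1, an HSP40 cochaperone, at 168, 670.1 and 599 CPM in WT_FI and 149, 155 and 167 CPM in KO_FI. The mitochondrial chaperonin pair showed it too, with Hspd1 at 188, 597 and 411 CPM in WT_FI and 188, 171 and 196 CPM in KO_FI and Hspe1 at 90.1, 227 and 162 CPM in WT_FI and 92.8, 49.4 and 51.1 CPM in KO_FI. Hspa1a and Hspa1b, the inducible HSP70 genes, had a status other than OK (HIDATA) and no estimate, and were not tested. Without both libraries of index 0 the list median was -1.24, and 1 gene, the HSP40 gene Dnaja4, passed the test (log2 -3.26, adjusted p = 0.0199 in edgeR's test). Dnaja4, named after its value was seen, lay at 473, 271 and 287 CPM in WT_FI and 506, 29.1 and 29 CPM in KO_FI, so KO_FI of index 1 and 2 stood alone at the low end.

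Hspd1 and Hspe1 are neighbours that share a promoter between them. A heat shock element of 3 units, written GAANNTTCNNGAA or TTCNNGAANNTTC and searched on both strands, was found in the 250 bases before the start of 2 of the 13 chaperone genes with a promoter entry (15.4%), these same 2, and of 51 of 10596 tested genes (0.481%). The stretch chr1:55088008-55088127 (GRCm38.p6, plus strand, upstream of Hspe1) is shown because it holds the element beside both genes, in capitals, where 2 matches overlap. No match elsewhere says only that these letters are not in the window.
Hspe1: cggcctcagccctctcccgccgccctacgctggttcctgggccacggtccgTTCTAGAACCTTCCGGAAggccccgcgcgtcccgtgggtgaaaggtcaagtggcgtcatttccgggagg

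Immediate early genes, mainly transcription factors, also lay below 0, 25 of 25, with a median of -0.60. Their within-index medians were -0.23, -0.91 and -0.67. With upper-quartile factors 24 of the 25 were below 0. Of the 25 genes, 17 were lower in KO_FI within all 3 indices (16.6% of all genes were). Fosb, an AP-1 subunit, was at 7628, 5239 and 4416 CPM in WT_FI and 4884, 2658 and 2871 CPM in KO_FI, with overlapping groups and a lower KO_FI value at each index. Klf4, a zinc finger factor induced by stress, lay at 607, 643 and 504 CPM in WT_FI and 502, 300.1 and 338 CPM in KO_FI (log2 -0.62), and Cyr61, a secreted CCN protein, at 1835, 2754 and 1987 CPM in WT_FI and 1536, 975 and 1319.5 CPM in KO_FI (log2 -0.78). Groups did not overlap only for 2 genes of the list, Klf4 and Cyr61, a share of 8% against 9.22% of all genes. For Klf4 the nearest values were 504 CPM (WT_FI) and 502 CPM (KO_FI). Klf2, a related factor, differed by -1.94 and -1.28 at index 1 and 2 and by 0.20 at index 0. Summed over the list, levels were 42980.0, 40670.0 and 34820.0 CPM in WT_FI and 39470.0, 23970.0 and 22660.0 CPM in KO_FI. Fos, Jun and Egr1 had a status other than OK (HIDATA) and no estimate in this table, so the sums leave them out. The time from tissue to lysis is not given in the sources used here.

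**Figure D3:**
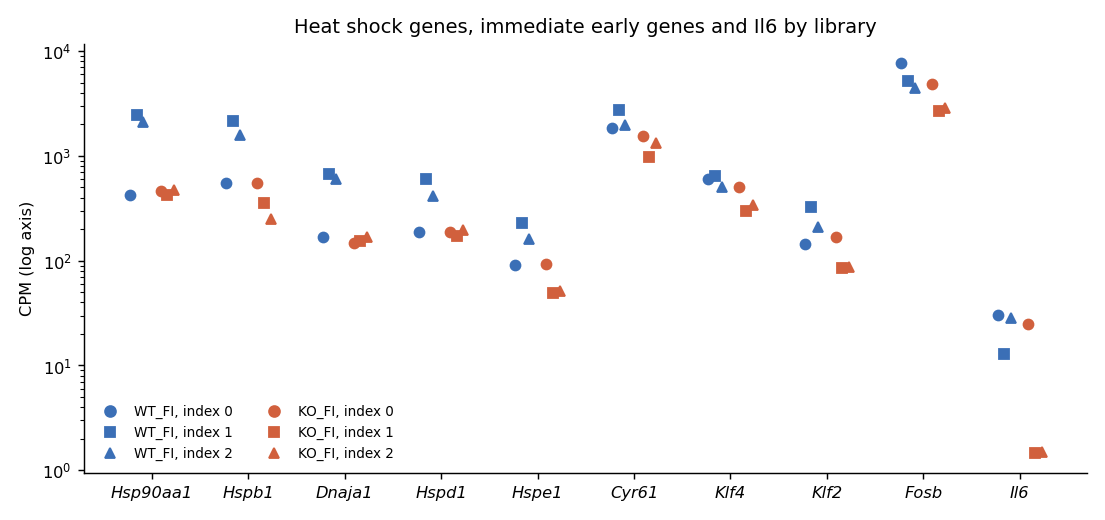
CPM (log axis) of 5 heat shock genes, 4 immediate early genes and Il6 in each library; blue is WT_FI, orange KO_FI, and the symbol gives the index. The heat shock genes are high only in WT_FI of index 1 and 2, whereas Fosb is highest in WT_FI of index 0.

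Inflammatory genes gave few clear values. NF-kB subunits, feedback genes and targets had 19 of 25 estimates below 0 (median -0.29) and no gene without overlap. Tnfaip3, a feedback inhibitor of NF-kB, lay at 481, 236 and 248 CPM in WT_FI and 339.6, 111 and 131 CPM in KO_FI, with within-index differences of -0.50, -1.09 and -0.92. Il6, a cytokine of activated satellite cells and leukocytes, named after its values were seen, lay at 30.7, 12.8 and 28.5 CPM in WT_FI and 25, 1.45 and 1.48 CPM in KO_FI. In Il6 the KO_FI libraries of index 1 and 2 were more than 8 times below every other library. Cxcr7, a receptor that takes up the chemokine CXCL12, lay at 334, 377 and 296 CPM in WT_FI and 214, 220.5 and 183 CPM in KO_FI (log2 -0.71, SE 0.14), with even differences at each index. Cx3cl1, fractalkine, was higher in KO_FI (log2 0.54). Interferon response genes were above 0 for 23 of 32 (44.7% of all genes were), with a median of 0.11 and 2 without overlap (6.25% against 9.22% of all genes), one of them Oasl2 (log2 0.53). Myeloid markers, 15 genes, summed to 308, 350.1 and 998 CPM in WT_FI and 486, 271 and 517 CPM in KO_FI, highest in WT_FI of index 2, and their part in these values was not tested.

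Of metabolic genes, oxidative phosphorylation gave the most uniform sign: all 56 genes were below 0, with a median of -0.24, and 33 were lower in KO_FI within all 3 indices. The differences were small, with within-index medians of -0.02, -0.41 and -0.20, and groups did not overlap for 4 genes (7.14% against 9.22% of all). Ndufb10, a subunit of complex I, lay at 66.5, 82.8 and 65 CPM in WT_FI and 61.2, 60.7 and 55.5 CPM in KO_FI (log2 -0.27). Ribosomal protein genes, which separated the indices most plainly, were below 0 for all 64, but within index 0, 1 and 2 their medians were -0.24, -0.53 and 0.12, and none was without overlap. Without both libraries of index 1, 43 of the 64 were above 0. Whether the oxidative phosphorylation values share the source of the ribosomal ones was not tested.

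Glycolysis and pentose phosphate genes were below 0 for 26 of 30 (median -0.22), against 55.3% of all genes, and 2 had groups that did not overlap (6.67% against 9.22%), one of them Eno3, the muscle enolase (log2 -0.27). Pdp2, the phosphatase that activates pyruvate dehydrogenase, lay at 27.3, 27.9 and 18.5 CPM in WT_FI and 14.4, 10.8 and 14.2 CPM in KO_FI (log2 -0.91, SE 0.21), and Pdha1, the catalytic subunit of that complex, at 182, 191 and 199 CPM in WT_FI and 164, 165 and 179 CPM in KO_FI (log2 -0.17). Each was lower in KO_FI, Pdha1 by little. Citric acid cycle genes were below 0 for 16 of 18, among them Sdhb, a subunit of succinate dehydrogenase (log2 -0.24). Fatty acid oxidation had no common sign, with 11 above and 16 below 0 and a median of -0.01, which turns to 0.01 with upper-quartile scaling. Cpt1a, which admits fatty acids to mitochondria, differed by -0.11, 0.80 and 1.10 within the indices.

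The sirtuin and NAD list had no common direction. Over its 26 genes, 15 were above and 11 below 0, with a median of 0.03. Sirt2, a tubulin and histone deacetylase that also acts on H4K16, lay at 208, 236 and 194 CPM in WT_FI and 227, 269.7 and 224 CPM in KO_FI (log2 0.18, SE 0.13). Groups did not overlap for Aox1, an aldehyde oxidase (log2 0.63), and Parp3, an ADP-ribosyltransferase that consumes NAD (log2 0.48), both higher in KO_FI (7.69% of the list against 9.22% of all genes). Writers, erasers and readers of H4K16 acetylation and other histone acetylation, without the sirtuins, numbered 32 together with the acetyl-CoA enzymes Acly and Acss2. Of these genes 17 were above 0, with a median of 0.03. Groups did not overlap for 3 of them, all higher in KO_FI, a share of 9.38% against 9.22% of all genes, among them Myst4, an H3 acetyltransferase (log2 0.23), and Hcfc1, a subunit of acetyltransferase and methyltransferase complexes (log2 0.23).

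**Figure D4:**
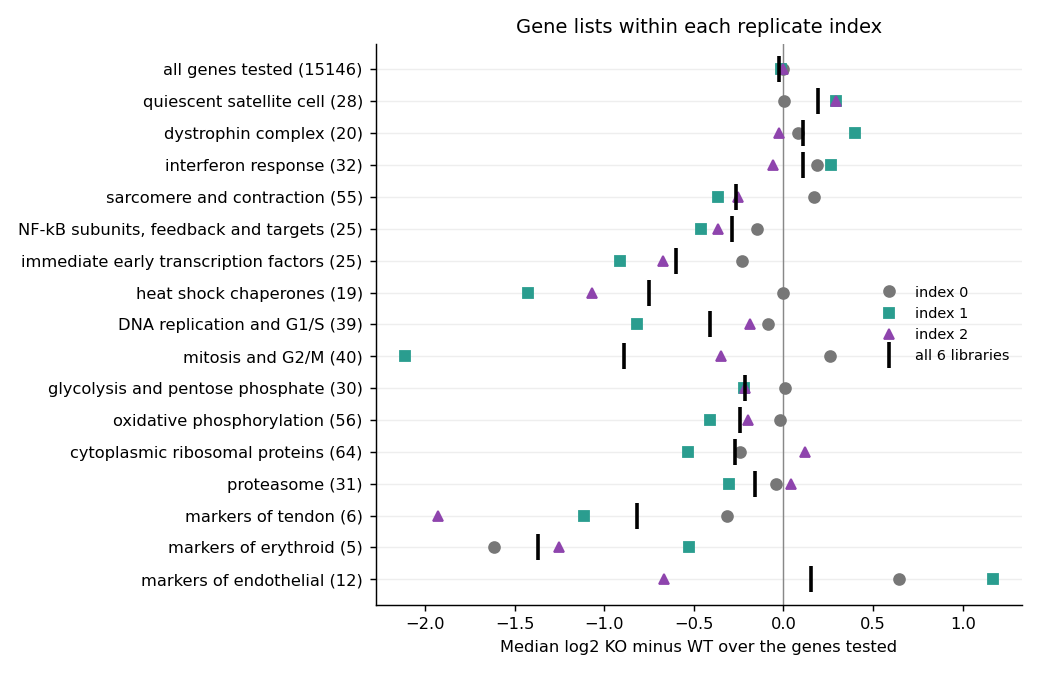
Median log2 difference, KO minus WT, over the genes of each list (number tested in brackets) within index 0 (grey circle), 1 (green square) and 2 (purple triangle), and from the fit of all 6 libraries (black bar). For mitosis, heat shock and DNA replication index 1 lies farthest from 0, and index 0 lies near 0 or, for mitosis, above it.

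In the signalling and matrix lists, genes without overlap lay on both sides. TGF-beta, BMP and myostatin genes had 8 higher and 2 lower of 40 without overlap (25%, against 9.22% of all genes). Tgfb2, a TGF-beta ligand, lay at 55.5, 60.3 and 68.2 CPM in WT_FI and 88.2, 96.6 and 106 CPM in KO_FI (log2 0.66, SE 0.12), with differences of 0.66, 0.67 and 0.63 within the indices. Bmp1, a metalloproteinase that processes procollagen, lay at 537, 468 and 487 CPM in WT_FI and 655, 809 and 725 CPM in KO_FI (log2 0.55), and Bmp2, a BMP ligand, at 40.1, 34.4 and 46.2 CPM in WT_FI and 34, 20.3 and 23.6 CPM in KO_FI (log2 -0.63). So the ligands Tgfb2 and Bmp2 stood on opposite sides. In the Notch list, groups did not overlap for 4 genes in the higher and 1 in the lower direction of 26 (19.2% against 9.22% of all genes), and the median was 0.01, or -0.0025 with median-ratio factors. Dtx1, which binds Notch, lay at 3.1, 2.21 and 2.71 CPM in WT_FI and 6.72, 7.86 and 6.08 CPM in KO_FI, Jag2, a ligand, differed by 0.51, and Hey2, a target, lay at 11.8, 16.1 and 26.5 CPM in WT_FI and 11, 7.36 and 7.76 CPM in KO_FI (log2 -1.05). Hes1, the other target described, overlapped (log2 -0.48). Lrp5, a Wnt coreceptor, was higher in KO_FI (log2 0.42), as was Cdon, a coreceptor of Hedgehog and cadherin partner in myoblasts, at 932, 633 and 779 CPM in WT_FI and 1067, 1277 and 1404 CPM in KO_FI (log2 0.68). Igfbp4, which binds insulin-like growth factors, lay at 356, 513 and 402 CPM in WT_FI and 536, 691 and 616 CPM in KO_FI (log2 0.54).

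Collagens and laminins had 6 genes without overlap in the higher and 3 in the lower direction of 39 (23.1% against 9.22% of all genes). Lama3, the alpha chain of epithelial laminin 332, lay at 161, 98.6 and 144 CPM in WT_FI and 62, 65.2 and 71.5 CPM in KO_FI (log2 -1.02, SE 0.19). Col7a1, the anchoring fibril collagen that binds this laminin, was lower as well (log2 -0.59). Higher in KO_FI were Col6a2, a collagen VI chain of the satellite cell niche, at 404, 347 and 396 CPM in WT_FI and 490.2, 530.0 and 522 CPM in KO_FI (log2 0.43), Col15a1 (log2 0.50) and Lamb1 (log2 0.41), both of basement membranes. Among metalloproteinases and inhibitors, Mmp19 lay at 17, 10.2 and 11.3 CPM in WT_FI and 25.4, 27.3 and 25.6 CPM in KO_FI (log2 1.02, SE 0.21), Adam12, a disintegrin of regenerating muscle, at 19.8, 28.4 and 21.1 CPM in WT_FI and 36.8, 33.9 and 33.4 CPM in KO_FI (log2 0.59), and Timp2, an inhibitor, differed by 0.35. The dystrophin complex had 4 genes without overlap that were higher and 1 lower of 20 (25% against 9.22% of all genes), among them Dag1, dystroglycan, the laminin receptor of the complex, at 2339, 2281 and 2137 CPM in WT_FI and 2651, 3421 and 3510.3 CPM in KO_FI (log2 0.50), and Sspn, sarcospan (log2 0.35). Fibroblast and fibro-adipogenic markers, 14 genes, summed to 11090.0, 8364 and 8734 CPM in WT_FI and 11640.0, 10660.0 and 9215 CPM in KO_FI, and their part in the matrix values was not tested.

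Single genes of the remaining lists follow. Bhlhe41, a clock repressor, lay at 14.3, 17.1 and 12.7 CPM in WT_FI and 19.6, 25.4 and 27.5 CPM in KO_FI (log2 0.72), the gene with the smallest p among 17 clock genes. Gstt1, a glutathione transferase, lay at 55, 54.1 and 55.5 CPM in WT_FI and 72.1, 100.1 and 71.7 CPM in KO_FI (log2 0.57). Rhod, a small GTPase of endosomes, was low and higher in KO_FI (log2 0.73). Autophagy and lysosome genes had 1 of 31 without overlap (3.23% against 9.22% of all genes), Wipi1, a phosphoinositide-binding protein of autophagosome formation (log2 0.30). Polycomb genes had none, and Ezh2, the methyltransferase, lay at 30.9, 33.6 and 26.7 CPM in WT_FI and 28.8, 19.2 and 21.6 CPM in KO_FI (log2 -0.39).

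Among markers of tendon and erythroid cells no gene passed the test and none was without overlap. Tendon markers were below 0 for 6 of 6 (median -0.82), and their summed level was 1659, 488 and 789 CPM in WT_FI and 1260.0, 189 and 211 CPM in KO_FI. Tnmd, tenomodulin, lay at 38.5, 22.6 and 26.7 CPM in WT_FI and 35.9, 3.72 and 5.51 CPM in KO_FI, Thbs4, a thrombospondin, at 766, 251 and 364 CPM in WT_FI and 551, 97.4 and 95.4 CPM in KO_FI, and Fmod, fibromodulin, at 708, 178 and 329.7 CPM in WT_FI and 550.4, 65 and 86.3 CPM in KO_FI. As for Il6, Dnaja4 and the immediate early genes, KO_FI of index 1 and 2 was lowest. Erythroid markers were below 0 for 5 of 5 and summed to 172, 17.1 and 53.5 CPM in WT_FI and 66.1, 12.6 and 25.2 CPM in KO_FI, and one of them, Hbb-b2, was at 0 in KO_FI of index 0. Smooth muscle and pericyte markers, 10 genes, summed to 6561, 6306 and 11480.0 CPM in WT_FI and 7581, 7208 and 7300.0 CPM in KO_FI, highest in WT_FI of index 2. In these bulk samples fewer cells of a type and less RNA per cell cannot be told apart, and the part of these cells in the differences above was not tested.

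The genes that led the comparison were also measured in separate KO and WT libraries of proliferating cells in culture (Cul, 2 against 2) and of cells after 24 hours in differentiation medium (Diff, 2 against 2), in tables processed separately. The table of cultured cells was matched to its state by its name alone. In neither table did a gene pass edgeR's test without the block, 0 of 13963 in Cul (0%) and 0 of 14482 in Diff (0%), with 112 and 27 genes at an unadjusted p under 0.05. Of the 14 genes lower in KO_FI, 11 were tested in Cul and all 11 had estimates below 0, as 46.8% of all genes did. Groups did not overlap in that direction for 8 of them (11.1% of all genes). Among these 8, Fgf12, Tmem229a, Iqch and Adh1 were under 1 CPM in every Cul library. For Adh1 the nearest values were 0.231 CPM (WT) and 0.227 CPM (KO). In Diff, 12 of the 14 were tested, 9 were below 0 (50.8% of all genes) and 6 did not overlap (6.85%). Among these 6, Fgf12 was again under 1 CPM, with nearest values of 0.293 CPM (WT) and 0.262 CPM (KO). Of the 15 genes higher in KO_FI, 8 of 13 were above 0 in Cul (53.2%) and none was without overlap (11.8%). In Diff 9 of 14 were above 0 (49.2%), with 3 without overlap in that direction (6.39%) and 1 in the other. Among these 3, Vstm2a was under 1 CPM in every Diff library. The difference between the states was not tested.

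Elovl4 stood lower in KO in all 3 states. In Cul it lay at 20.2 and 20.2 CPM (WT) against 5.77 and 4.71 CPM (KO), and in Diff at 21.4 and 11.1 CPM (WT) against 6.33 and 3.21 CPM (KO). Each KO library was below each WT library of its state, with log2 differences of -1.95 and -1.76 (unadjusted p = 0.000693 and 0.0384). Kcne4 lay at 0.179 and 4.69 CPM (WT) against 0.152 and 0.968 CPM (KO) in Cul, and in Diff at 3.14 and 3.02 CPM (WT) against 0.302 and 0.59 CPM (KO) (log2 -2.79). Adh1 in Diff lay at 5.17 and 5.44 CPM (WT) against 1.22 and 0.774 CPM (KO) (log2 -2.41). Hpse, much lower outside the fresh cells, lay at 0.935 and 2.15 CPM (WT) against 0.483 and 0.681 CPM (KO) in Cul and 5.49 and 3.45 CPM (WT) against 1.05 and 2.41 CPM (KO) in Diff. In all of these the KO values stood below the WT values except Kcne4 in Cul, where the groups overlapped. Ryr3 did not keep its side, with 2.41 and 16.8 CPM (WT) against 2.35 and 29.5 CPM (KO) in Diff. Mylk2, higher in each KO_FI library, lay at 26.3 and 132 CPM (WT) against 42 and 102 CPM (KO) in Cul and 65.9 and 86.9 CPM (WT) against 52 and 58.8 CPM (KO) in Diff, with overlap in Cul and the KO libraries lower in Diff. Mn1 in Diff lay at 0.785 and 1.11 CPM (WT) against 2.66 and 4.47 CPM (KO), again with KO above WT. Myod1 lay at 2104 and 1931 CPM (WT) against 2389 and 1837 CPM (KO) in Cul and 1041 and 2269.8 CPM (WT) against 1390.0 and 2067 CPM (KO) in Diff, where the groups overlapped. Sirt1 itself lay at 62.2 and 66.8 CPM (WT) against 33.8 and 46.9 CPM (KO) in Cul.

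**Figure D5:**
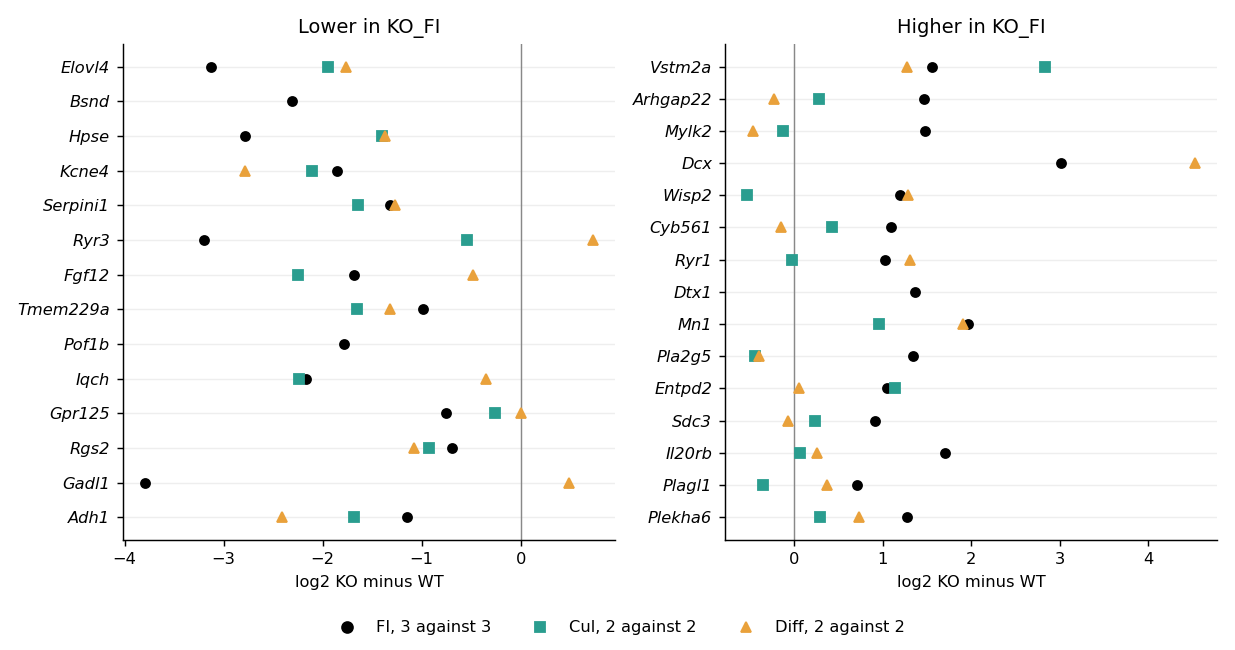
Log2 difference, KO minus WT, of the 14 genes lower (left) and the 15 higher (right) in KO_FI, in freshly isolated (black circle, 3 against 3 libraries), cultured (green square, 2 against 2) and differentiating cells (yellow triangle, 2 against 2); genes that did not pass the filter of a table have no point. On the left all 11 points of cultured cells lie below 0, and on the right the points of the other states lie on both sides of 0.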

How the data were processed

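Members and gene lists were chosen with earlier results of these data known. The authors deposited a Cuffdiff table per comparison, per the file headers, with raw fragments, which are estimated counts, and FPKM per gene and library. The submitters' processing notes name Bowtie, TopHat, Cuffdiff and mm9 without versions. Promoter sequences are from RefSeq (GRCm38.p6), matched by symbol. Genes without status OK (22) were left out, and estimated counts were rounded. edgeR 4.0.16 (quasi-likelihood, robust, TMM, filterByExpr) compared 3 KO_FI with 3 WT_FI libraries, with Benjamini-Hochberg adjustment over 15146 genes and a threshold of 0.05. The fit was also run on simulated counts, where recovery was required only at a set dispersion below that of these data. That check does not show which changes the comparison could miss. R 4.3.3, limma 3.58.1 and DESeq2 1.42.0 served the alternatives. Libraries are named by the table's index, since the labels do not tie it to their replicate numbers. Same-index libraries of the 2 groups deviated together (r = 0.865, 0.704 and 0.548 across genes), so the index was used as a block in alternative fits. WT_FI of index 1 and KO_FI of index 2 did so as well (r = 0.554), as did WT_FI of index 2 and KO_FI of index 1 (r = 0.315). Deviations were taken from each group's mean, so the outlying index 0 moves index 1 and 2 of both groups alike. Pairing within index 1 and within index 2 is thus not shown. No 2 libraries agreed within sampling noise. Genes were named by rule: Sirt1, up to 15 per direction with the smallest p, 4 myogenic regulators and up to 6 per list, and predicted genes were passed over. Some genes the rule selects are not reported here. Of listed symbols, 36 fell below the filter, 8 were not OK and 33 were not matched. Fragments of overlapping or near-identical genes may be misassigned, and counting is not stated to use strand. Unused per-sample columns numbered 0.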

Additional observations from a re-analysis of the deposited data

How the results depend on the processing

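For the freshly isolated cells the count of 0 genes called held with median-ratio and upper-quartile factors, without a filter, with a mean of at least 5 CPM, and with limma on log2(FPKM + 1) or log2(FPKM + 0.1). It was 117 with DESeq2 and 251 with DESeq2 and the replicate block, and 1 (Dnaja4) without both libraries of index 0. Leaving out single libraries gave 0 to 0 genes, with a smallest adjusted p of 0.18 to 0.804. With edgeR and the replicate block it was 0, with a smallest adjusted p just above 0.05. Alternatives chosen after seeing the data gave 3 genes with index 0 as a term (Elovl4, Kcne4, Rhoh) and 3 with the block in edgeR's newer fit (Lmod2, Hpse, Rhoh, adjusted p = 0.0450), and 0 with that fit alone. In the other states the replicate block gave 3 genes for Cul and 147 for Diff, and DESeq2 gave 3 and 0. Of the genes that led in the fresh cells, the block called Elovl4 in Cul. In Diff it called Elovl4, Kcne4, Adh1, Dcx, Mn1, Wisp2 and Ryr1. With 2 pairs each, those indices are not shown to pair the libraries. Of 127 genes named, 125 kept their sign under all 18 alternatives run. Without both libraries of index 1, Pax7 came to -0.0024 and Myog to 0.81, and leaving out single libraries put Myog at -1.62 to 0.64 and Pax7 at 0.04 to 0.24; Myog turned positive without WT_FI of index 1. List medians close to 0 changed sign with the scaling for 6 lists (fatty acid oxidation, Notch, collagens and laminins, clock, small GTPases, lymphocyte markers). The common biological coefficient of variation was 0.378 over 3 libraries a group. Depth was at least 28010691 fragments per library, and its effect on the genes called was not tested.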

Other observations

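Several lists not described above had a common sign and small sizes. Proteasome genes were below 0 for 31 of 31 (median -0.16) and aminoacyl-tRNA synthetases for 21 of 21 (median -0.11), against 55.3% of all genes, and without both libraries of index 1 they stood at 16 of 31 and 7 of 21 below 0. Ribosome biogenesis genes were below 0 for 27 of 29, with within-index medians of -0.08, -0.68 and 0.23. Cyclins, CDK inhibitors, E2F and pocket proteins were below 0 for 21 of 26, and among them E2f8, a repressor E2F, lay at 8.14, 8.01 and 8.1 CPM in WT_FI and 6.92, 1.83 and 4.05 CPM in KO_FI.

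The p53 list was below 0 for 19 of 26 genes, yet Ddit4, an inhibitor of mTORC1 induced by stress, lay at 249.9, 379 and 384 CPM in WT_FI and 276, 783 and 643 CPM in KO_FI, higher in KO_FI at each index. Plk2, a kinase among p53 targets, lay at 267, 312 and 165 CPM in WT_FI and 185, 88.8 and 104 CPM in KO_FI, lower at each index. FGF and IGF signalling had 19 above and 12 below 0, and Fgf13, a homologue of Fgf12 that also binds sodium channels, lay at 18.7, 28.2 and 18.6 CPM in WT_FI and 14.8, 15.4 and 14.5 CPM in KO_FI (log2 -0.55), lower in every KO_FI library, as Fgf12 was. Groups did not overlap for 2 FGF and IGF genes in the higher and 2 in the lower direction of 31 (12.9% against 9.22% of all genes). Integrins and cadherins were above 0 for 16 of 31, and Itga3, an integrin that binds laminins, lay at 21.8, 20.3 and 28.3 CPM in WT_FI and 30.9, 31.5 and 28.7 CPM in KO_FI (log2 0.37).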
